A study of Mus musculus with 8 samples.

Results

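The COPII coat and the rest of the endoplasmic reticulum (ER) exit machinery were followed through 36 genes, out of the 24413 gene symbols in the data. These genes were chosen by name for their place in the pathway, with earlier results of these data known. They comprise 6 genes of coat assembly, 8 coat subunits, 2 adaptors for large cargo, 9 cargo receptors, 2 Yip family proteins, 6 SNAREs and 3 TRAPP tethers. The samples were plasmablasts, dividing antibody-secreting cells. B220+ B cells from the spleens of C57BL/6J mice spent 4 days in culture under lipopolysaccharide (LPS, 25 µg/ml), and CD22-CD138+ cells were sorted from the cultures. The knockout group of 4 libraries was Jagn1fl/fl Mb1Cre+, and the control group of 4 libraries was Jagn1fl/fl. Both groups thus carried the floxed alleles and received LPS. Mb1-Cre is a recombinase expressed from the B lineage gene Cd79a, and no Cre is listed for the controls, so effects of Cre and of Jagn1 loss cannot be told apart. The design names 4 mice per genotype and gives no age, and p-values refer to the spread among these 8 samples. The comparison asks which transcripts differ once B cells lack Jagn1, which encodes an ER membrane protein.

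Proteins leave the ER in vesicles built by the COPII coat. The GTPase Sar1 is switched on by its exchange factor Preb (Sec12), recruits the Sec23-Sec24 inner layer, which binds cargo, and then the Sec13-Sec31 outer cage, at sites organised by Sec16 and Tfg. Adaptors of the TANGO1 family (Mia3 and Ctage5) help large cargo to leave, transmembrane receptors collect soluble cargo, and TRAPP tethers and SNAREs capture and fuse the vesicles at the Golgi side. Plasmablasts rely on this route because they export antibody in bulk.

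Levels are given as CPM, read counts scaled to a common library total with TMM factors. The libraries were made by a 3′ tag kit that yields 1 tag per transcript end, so CPM was not divided by length and compares genes by their tags. Totals ran from 5882912 to 10066661 counts, and 3 counts, the upper limit for a count of 0, equalled 0.298 to 0.510 CPM, which covers counting error only. Jagn1 gave 2.23 to 9.64 CPM in controls and 0.12 to 0.269 CPM in the knockout libraries (log2 fold change -4.81 ± 0.73 SE, adjusted p = 0.000818, edgeR), as labelled, although the deleted exons are not stated and a tag at the transcript end need not report them. Of 9 plasmablast markers 5 were lower in the knockout and 0 higher (beside 3.19% and 2.54% of all genes), among them Sdc1 (CD138, log2 fold change -1.07). Their summed level was 27380 to 34490 CPM in controls and 21210 to 27250 CPM in the knockout. Summed markers of other cells were 908 to 1173 and 844 to 962 CPM for B cells, 13.5 to 20.9 and 10.4 to 13.6 CPM for T cells, and 2.37 to 6.32 and 1.48 to 3.45 CPM for myeloid cells, of which 4 of 8 were at 0 in every library. Among the 8 B cell markers tested, Cd79a, the locus of Mb1-Cre, was the one called, at 304 ± 77.6 CPM in controls and 148 ± 23.5 CPM in the knockout (log2 fold change -1.04 ± 0.19 SE, adjusted p = 0.00313, edgeR). Summed dendritic cell markers were 1.26 to 4.46 CPM in controls and 4.89 to 7.09 CPM in the knockout, and those of NK cells (2 of 4 at 0) and erythroid cells (4 of 5 at 0) were at most 0.682 CPM. The part of these markers in the results was not tested, and in bulk RNA a smaller share of cells of a type and less RNA per cell cannot be told apart.

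Most of the ER exit machinery was expressed in every library, and 1 gene of it differed past the threshold. Of the 36 genes, 35 passed the filter on low counts. Sec16b, a paralog of the exit site scaffold Sec16a, did not: it gave 0 counts in all 4 control libraries and 0, 0, 1 and 0 counts in knockout replicates 1 to 4. Ctage5 was higher in the knockout and 0 genes were lower, at an adjusted p under 0.05 in edgeR's quasi-likelihood test. Over all 9904 genes tested, 5.74% were called, 2.54% as higher and 3.19% as lower, so 1 of 35 is close to the background. At an unadjusted p under 0.05, 8 of the 35 members were higher (Ctage5, Mcfd2, Bet1, Cnih1, Mia3, Sec24b, Tfg and Yif1a). That is a larger share than the 8.30% of all genes. At the same threshold 1 of the 35 was lower (Ergic1), a smaller share than the 9.72% of all genes. The groups did not overlap for 3 of the 35 that were higher in the knockout (Ctage5, Mcfd2 and Sec24b), beside 6.45% of all genes. They also did not overlap for 1 of the 35 that was lower (Ergic1), beside 6.64%. The fitted log2 fold changes ran from -0.39 to 0.77 with a median of 0.08, beside a median of -0.01 over all genes. Of the 35 fitted values 23 lay above 0, or 65.7%, beside 48.7% of all genes. That lean varied with the libraries used: without control replicate 1 the median of the members was -0.047. Without control replicates 1 and 4 together it lay above 0. The 95% interval lay within a 2-fold change either way for 28 members. It reached beyond 2-fold upward for Tfg, Mcfd2, Cnih1, Sec24b, Ctage5 and Bet1, and downward for Lman2.

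**Figure D1:**
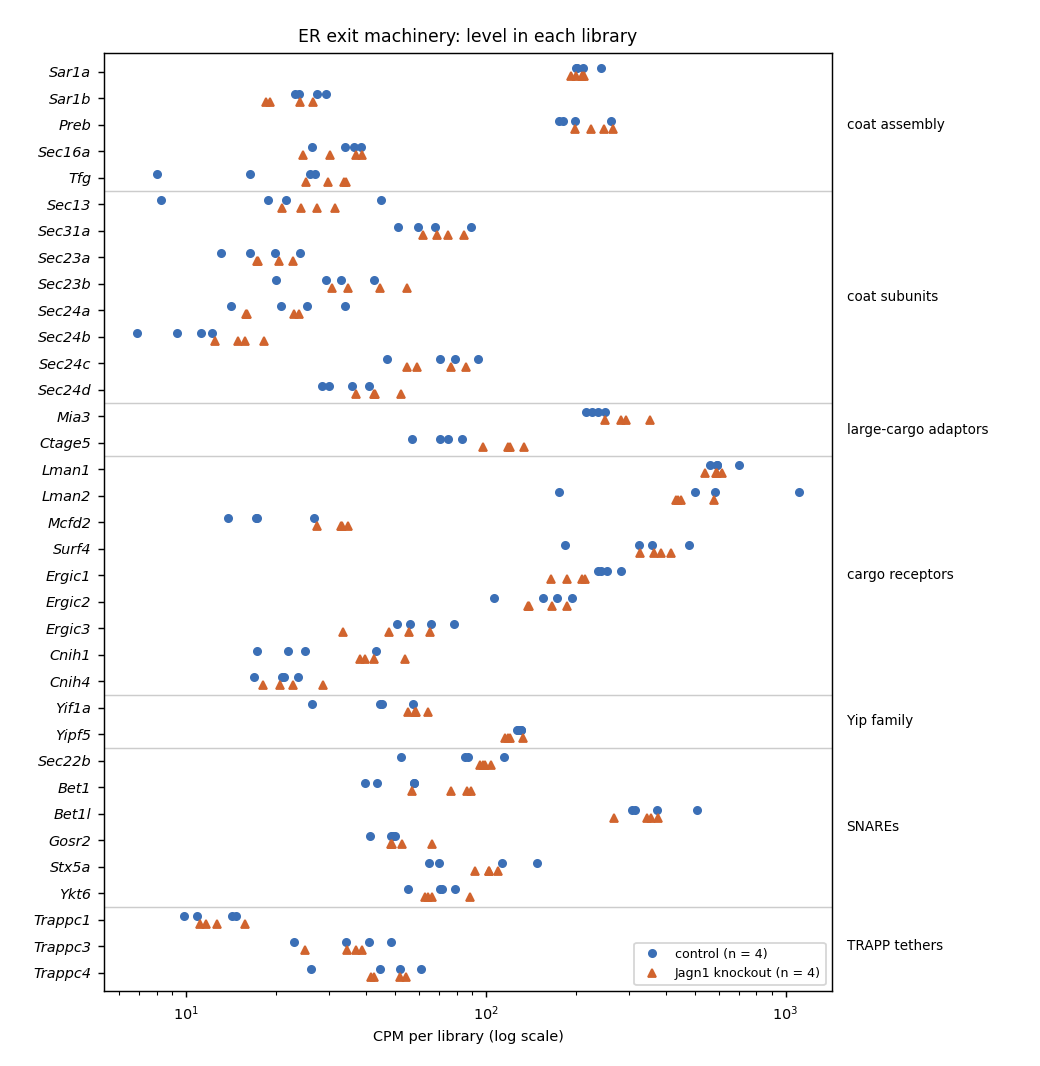
Level of the 35 genes that passed the filter, by role, with 1 point per library on a logarithmic CPM axis (circles, 4 control libraries; triangles, 4 Jagn1 knockout libraries). For Ctage5, Mcfd2 and Sec24b all triangles lie to the right of all circles, and for Ergic1 all lie to the left.

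As a whole, the pathway had overlapping summed levels in the groups. The summed level of the 36 genes was 3480, 4035, 4079 and 5011 CPM in control replicates 1 to 4 and 4008, 4133, 4240 and 4380 CPM in knockout replicates 1 to 4. The means were 4151 ± 635 and 4190 ± 158 CPM (SD, n = 4 each), or 0.342% to 0.511% of all counts over the 8 libraries. The knockout libraries lay inside the range of the control libraries. A large part of that control range came from the cargo receptor Lman2, with 175 CPM in control replicate 1 and 1108 CPM in control replicate 4. The sums thus lean on the most abundant genes. By role, the summed level of the large-cargo adaptors was the only one whose groups did not overlap, at 284 to 321 CPM in controls and 385 to 452 CPM in the knockout. The cargo receptors were the most abundant role, with 2076 ± 592 CPM in controls and 1931 ± 141 CPM in the knockout, and the TRAPP tethers the least, with 94.8 ± 26.7 and 94.1 ± 3.0 CPM.

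The genes of coat assembly gave 0 calls among 5 tested, with a median log2 fold change of -0.05. Sar1a, the more abundant of the GTPases, gave 202, 200, 243 and 212 CPM in control replicates 1 to 4 and 200, 210, 214 and 192 CPM in knockout replicates 1 to 4. Its groups overlapped almost completely (log2 fold change -0.07, 95% interval -0.35 to 0.21). Sar1b, the paralog known for the export of lipoprotein particles from gut cells, gave 23.9, 27.4, 23.1 and 29.4 CPM in controls and 26.6, 19.1, 24.1 and 18.5 CPM in the knockout. Its interval ran from -0.66 to 0.19, and 2 knockout libraries lay below all controls. Tfg, which forms a scaffold between exit sites and the Golgi side, gave 8.01, 16.4, 26.9 and 26.0 CPM in controls and 25.2, 29.8, 34.2 and 33.8 CPM in the knockout. The low values were control replicates 1 and 2, and replicate 1 of the knockout lay under 2 controls (log2 fold change 0.66 ± 0.30 SE, adjusted p = 0.248, edgeR). Preb had a mean of 205 ± 39.9 CPM in controls and 234 ± 29.5 CPM in the knockout, and Sec16a 33.8 ± 5.24 and 32.7 ± 6.51 CPM. Preb shares 1575 exonic bases with Abhd1 on the opposite strand, and use of strand in the counting was not given in the sources used here.

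The 8 coat subunits gave 0 calls, with a median log2 fold change of 0.13. Among the Sec24 paralogs, which bind cargo signals, Sec24c was the most abundant. It gave 46.8, 79.3, 70.5 and 94.0 CPM in control replicates 1 to 4 and 76.8, 58.9, 54.6 and 86.3 CPM in knockout replicates 1 to 4. The groups overlapped throughout (-0.07, 95% interval -0.52 to 0.38). Sec24b was the least abundant, with 6.88, 9.35, 11.3 and 12.3 CPM in controls and 14.9, 12.5, 18.2 and 15.8 CPM in the knockout. Every knockout library lay above every control, by a narrow gap between control replicate 4 and knockout replicate 2, and the fitted difference was 0.62 ± 0.25 (SE, adjusted p = 0.197, edgeR). Sec24d gave 28.4, 30.1, 35.8 and 41.0 CPM in controls and 42.6, 42.7, 52.3 and 37.0 CPM in the knockout. Knockout replicate 4 was the one that overlapped the controls (0.37, interval -0.03 to 0.76). Sec24a gave 14.2, 25.5, 20.8 and 34.1 CPM in controls and 15.8, 16.0, 23.9 and 23 CPM in the knockout, with all knockout values inside the control range (-0.27, interval -0.83 to 0.29).

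Sec23 activates the GTPase of Sar1 and pairs with Sec24. Sec23a gave 13.1, 16.4, 19.8 and 24.1 CPM in controls and 17.5, 20.4, 22.8 and 17.3 CPM in the knockout (0.08, interval -0.40 to 0.57). Sec23b gave 19.9, 29.3, 33.0 and 42.6 CPM in controls and 54.5, 30.6, 44.6 and 34.9 CPM in the knockout (0.40, interval -0.12 to 0.91). Both sets overlapped, with 2 knockout values of Sec23b above all controls. Sec23a shares 431 exonic bases with the antisense gene Gm17529. For the outer cage, Sec31a had means of 67.0 ± 16.3 and 72.7 ± 9.75 CPM and Sec13, which also belongs to the nuclear pore, 23.4 ± 15.4 and 26.0 ± 4.46 CPM. Sec13 had the widest interval among the coat subunits, from -0.64 to 0.91.

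The large-cargo adaptors held the one call. Ctage5, known as cTAGE5, pairs with TANGO1 (the product of Mia3) at exit sites and binds Sec23-Sec24. It gave 56.9, 74.8, 70.5 and 83.6 CPM in control replicates 1 to 4 and 135, 121, 119 and 97.9 CPM in knockout replicates 1 to 4. All knockout libraries lay above all controls, with knockout replicate 4 nearest to them. The means were 71.4 ± 11.1 and 118 ± 15.2 CPM (SD, n = 4 each), a 1.65-fold difference (log2 0.72 ± 0.16 SE, 95% interval 0.38 to 1.07, adjusted p = 0.0142, edgeR). Its call did not survive leaving out control replicate 3 (adjusted p = 0.052), knockout replicate 1 (0.0625) or knockout replicate 2 (0.0599), while the log2 fold change stayed between 0.63 and 0.80 in all 16 alternatives. Ctage5 is annotated in GENCODE M21 as part of the gene Mia2, on the plus strand of chromosome 12, 59095799 to 59191583 (GRCm38). The separate symbol Mia2 had 0 counts in all 8 libraries. Mia3 gave 227, 216, 251 and 237 CPM in controls and 251, 283, 295 and 355 CPM in the knockout. Its groups touched at control replicate 3 and knockout replicate 1, and its difference of 0.34 ± 0.14 had an interval of 0.04 to 0.64 (adjusted p = 0.196, edgeR). The knockout values of Mia3 were highest in replicate 4, where Ctage5 was lowest.

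**Figure D2:**
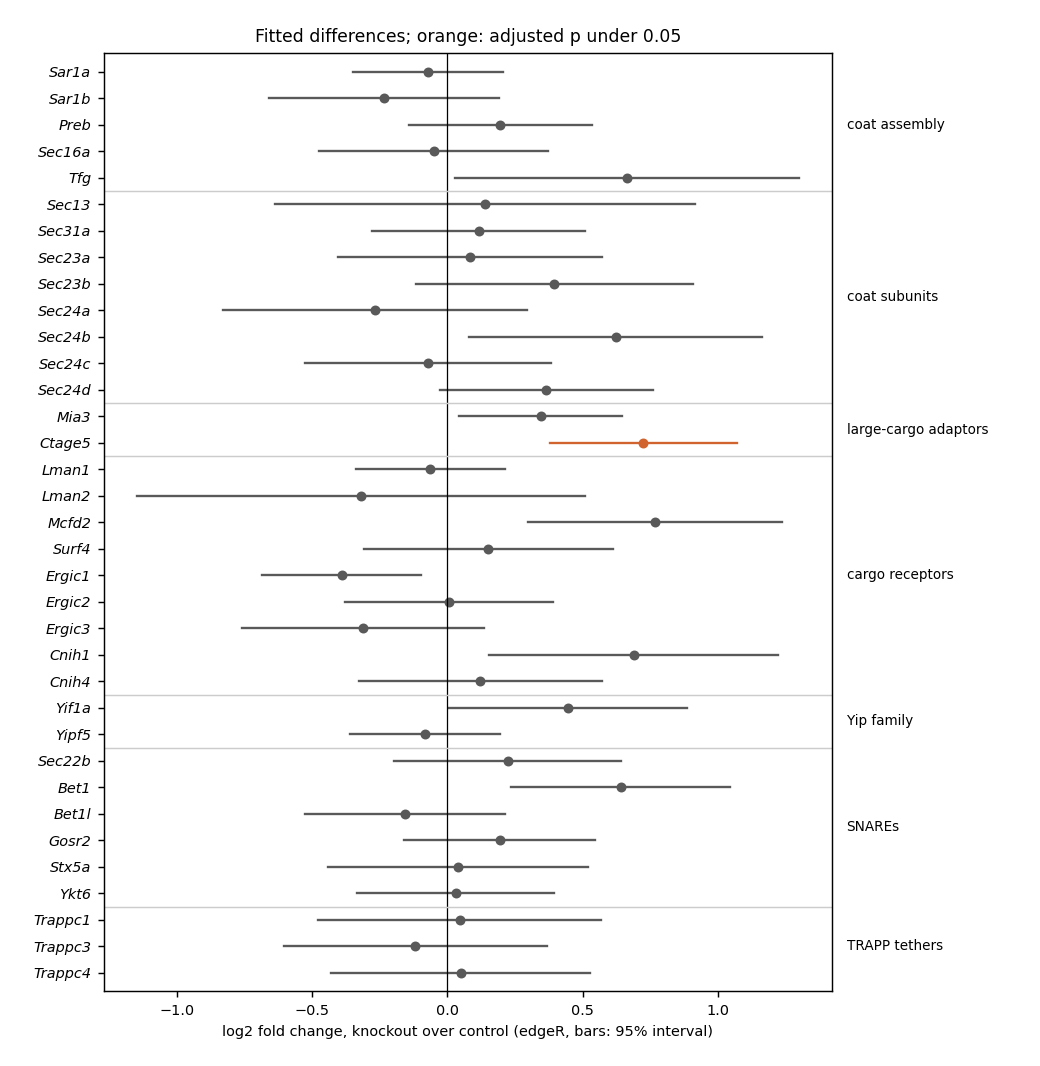
Fitted log2 fold change of each gene, knockout over control, with a 95% interval computed from the edgeR fit (n = 4 libraries per group), by role. Ctage5 (0.72) is the one point drawn in orange for an adjusted p under 0.05, and most intervals of the other genes cross 0.

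The cargo receptors had a median log2 fold change of 0.01 and 0 calls among 9 tested, with single members at both ends of the range. Lman1 (ERGIC-53), a lectin that carries glycoproteins, was the most abundant gene of the set. It gave 559, 591, 590 and 698 CPM in control replicates 1 to 4 and 540, 591, 616 and 589 CPM in knockout replicates 1 to 4. The groups overlapped, and the interval of -0.34 to 0.21 was among the narrowest. Mcfd2, the soluble calcium-binding partner of Lman1, gave 17.1, 13.9, 17.3 and 26.8 CPM in controls and 33.3, 34.7, 33.1 and 27.4 CPM in the knockout. Control replicate 4 and knockout replicate 4 nearly met, and the other libraries stood well apart. Its difference of 0.77 ± 0.22 (SE, interval 0.30 to 1.24) was the highest fitted value of the set and missed the threshold (adjusted p = 0.0546, edgeR). The 2 partners thus had different values, with fitted log2 fold changes of -0.06 for Lman1 and 0.77 for Mcfd2. The difference between those fold changes was not tested.

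Ergic1, a membrane protein that cycles between the ER and the Golgi, gave 254, 284, 237 and 243 CPM in controls and 166, 214, 187 and 210 CPM in the knockout. Every knockout library lay below every control (-0.39 ± 0.14 SE, interval -0.68 to -0.10, adjusted p = 0.126, edgeR). The related Ergic2 (157 ± 37.3 and 158 ± 23 CPM) and Ergic3 (62.6 ± 12.4 and 50.4 ± 13.4 CPM) overlapped between groups, with intervals of -0.38 to 0.39 and -0.76 to 0.13. The cornichon Cnih1, a receptor for membrane cargo, gave 17.3, 25.0, 21.9 and 43.0 CPM in controls and 53.7, 39.5, 42.4 and 38.0 CPM in the knockout. The overlap came from control replicate 4, and the difference of 0.69 ± 0.25 had an adjusted p of 0.143 in edgeR. Its paralog Cnih4 gave 21.2, 16.9, 20.9 and 23.7 CPM in controls and 20.7, 22.7, 28.7 and 18 CPM in the knockout (0.12, interval -0.33 to 0.57). Exons of Cnih1 share 229 bases with the antisense gene Gm48933, and those of Ergic2 share 837 with Far2 on the opposite strand. Surf4, a receptor for soluble secreted proteins, had means of 336 ± 120 and 373 ± 37.3 CPM (0.15, interval -0.31 to 0.61). Lman2 (VIP36), a lectin of the early secretory route, had means of 590 ± 387 and 473 ± 68.6 CPM, and its interval of -1.15 to 0.51 was the widest of the set.

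The Yip family and the SNAREs gave 0 calls among 2 and 6 tested. Yif1a, a membrane protein of vesicles and the Golgi, gave 26.3, 45.1, 44.6 and 57.4 CPM in control replicates 1 to 4 and 55.0, 58.8, 58.0 and 64.4 CPM in knockout replicates 1 to 4. Control replicate 4 lay above knockout replicate 1, and the difference was 0.44 ± 0.21 (SE, adjusted p = 0.268, edgeR). Yipf5 gave 131, 128, 127 and 131 CPM in controls and 119, 116, 133 and 121 CPM in the knockout, the tightest control group of the set relative to its level (-0.08, interval -0.36 to 0.19). Bet1, a SNARE that rides on vesicles from the ER, gave 39.6, 43.3, 57.7 and 57.6 CPM in controls and 76.7, 89.4, 86.7 and 56.6 CPM in the knockout. Knockout replicate 4 fell within the control range while the other 3 lay above it (0.64 ± 0.19 SE, interval 0.24 to 1.04, adjusted p = 0.0628, edgeR). Bet1l, its paralog in the Golgi and the most abundant SNARE here, gave 506, 373, 314 and 307 CPM in controls and 377, 357, 345 and 268 CPM in the knockout. Control replicate 1 stood highest and the groups overlapped (-0.15, interval -0.52 to 0.21). Bet1l shares 360 exonic bases with Gm45785 on the same strand, so its tags may be split or merged with that gene. It also shares 390 with Ric8a on the opposite strand. The other SNAREs, Sec22b, Gosr2, Stx5a and Ykt6, had fitted differences of 0.22, 0.19, 0.04 and 0.03.

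The TRAPP tethers, which catch vesicles before fusion, gave 0 calls among 3 tested, with a median of 0.05. Trappc4, the most abundant, gave 26.1, 44.3, 51.9 and 60.9 CPM in controls and 42.3, 54.2, 41.6 and 51.8 CPM in the knockout, all inside the control range (0.05, interval -0.43 to 0.53). It shares 462 exonic bases with the ribosomal protein gene Rps25 on the opposite strand. Trappc1 had means of 12.4 ± 2.43 and 12.8 ± 2.09 CPM, and Trappc3 36.6 ± 10.7 and 33.8 ± 6.09 CPM. Their intervals, -0.48 to 0.57 and -0.60 to 0.37, leave room for differences of moderate size. The median differences by role were thus -0.05 for coat assembly, 0.13 for coat subunits, 0.53 for the adaptors, 0.01 for receptors, 0.18 for the Yip family, 0.12 for SNAREs and 0.05 for tethers. No test between roles was made.

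The balance between paralogs was compared as the share of each gene in its family's counts, a measure free of scaling between libraries. Sec24b made up 7.15%, 6.48%, 8.16% and 6.77% of the counts of the 4 Sec24 genes in control replicates 1 to 4 and 9.93%, 9.61%, 12.2% and 9.72% in knockout replicates 1 to 4. The means were 7.14% ± 0.732 and 10.4% ± 1.25 (SD, n = 4 each), with no overlap (exact two-sided permutation p = 0.0286, adjusted over 9 shares p = 0.129). Bet1 made up 7.27%, 10.4%, 15.5% and 15.8% of the counts of Bet1 and Bet1l in controls and 16.9%, 20.1%, 20.1% and 17.4% in the knockout. These groups did not overlap either, with means of 12.3% ± 4.15 and 18.6% ± 1.68 (exact two-sided permutation p = 0.0286, adjusted p = 0.129). With 4 libraries against 4, 0.0286 is the smallest p that the test allows. It was reached by 2 of the 9 shares, and 0 passed after adjustment. The other 7 shares overlapped between groups. Cnih1 held 55.0% ± 8.74 of the cornichon counts in controls and 65.8% ± 5.44 in the knockout, and Ctage5 23.4% ± 2.92 and 28.8% ± 5.5 of the counts of Ctage5 and Mia3. Sec24a held 16.6% ± 1.99 and 13.3% ± 2.36 of the Sec24 counts, Sec24c on 51.6% ± 2.63 and 46.6% ± 7.45, and Sec24d on 24.7% ± 3.79 and 29.8% ± 5.41. Sec23a held 37.3% ± 1.69 and 32.8% ± 6.48 of the Sec23 counts and Sar1a 89.1% ± 1.64 and 90.3% ± 1.53 of the Sar1 counts.

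**Figure D3:**
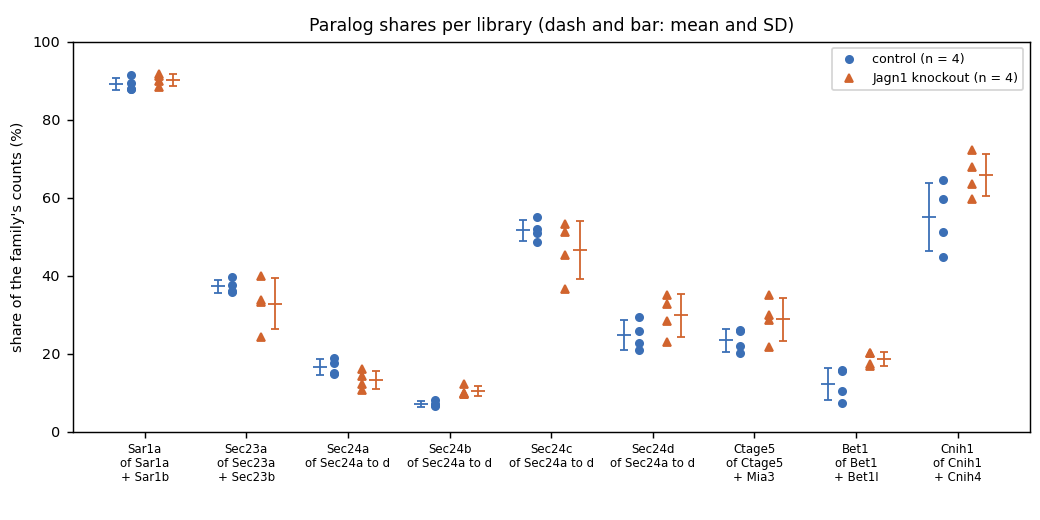
Share of each gene in the summed counts of its paralog family, in percent, for 4 control (circles) and 4 Jagn1 knockout libraries (triangles), with mean and SD beside them. The groups are separate for Sec24b (means 7.14% and 10.4%) and Bet1 (12.3% and 18.6%) and overlap for the other 7 shares.

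The control libraries differed among themselves more than the knockout libraries did. The highest control was at least 2-fold above the lowest for 13 of 35 members (37.1%, beside 44.5% of all genes), and 0 members spread that far among the knockout libraries (22.4% of all genes), where the widest range was 1.95-fold. The SD was larger in the control for 25 of 35 members (71.4%), beside 71.6% of all genes, so this holds across the data. Control replicate 1 was the lowest of the 8 libraries for 20 members (57.1%, beside 23.5% of all genes) and control replicate 4 the highest for 12 (34.3%, beside 20.1%). The members that follow were chosen after their values were seen. Lman2 gave 175, 498, 580 and 1108 CPM in control replicates 1 to 4, a 6.33-fold range, against 447, 432, 439 and 576 CPM in the knockout. Sec13 gave 8.29, 18.9, 21.6 and 44.9 CPM in controls and 31.4, 24.2, 21.0 and 27.3 CPM in the knockout. Both were lowest in control replicate 1 and highest in control replicate 4, with the knockout between them. Surf4 showed the same order, with 184, 324, 359 and 476 CPM in controls and 327, 384, 364 and 416 CPM in the knockout. Stx5a, a SNARE of the Golgi, ran the other way, with 149, 113, 69.9 and 64.8 CPM in controls and 102, 103, 110 and 91.9 CPM in the knockout. Xbp1, a transcription factor of the unfolded protein response whose known targets include secretory genes, gave 106, 210, 256 and 559 CPM in controls and 186, 196, 240 and 240 CPM in the knockout. Atf4, the main factor of the integrated stress response, gave 2268, 1462, 1279 and 849 CPM in controls and 2295, 2697, 2439 and 2188 CPM in the knockout. Among the controls Xbp1 thus had the order of Lman2 and Sec13, and Atf4 the order of Stx5a. The part of these factors in the results was not tested.

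**Figure D4:**
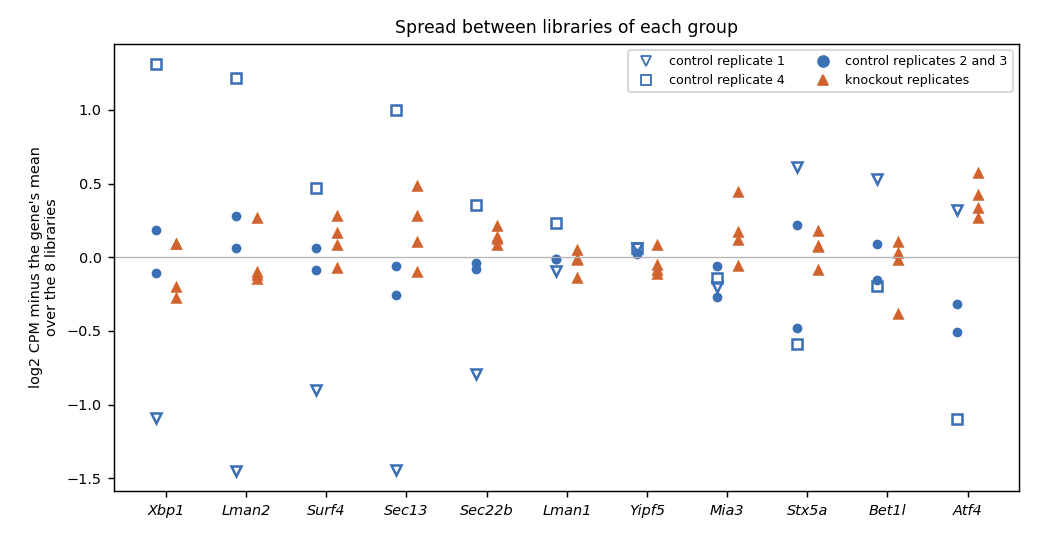
Log2 CPM minus the gene's mean over the 8 libraries for 9 members and for Xbp1 and Atf4, chosen after their values were seen, with 1 point per library. Open triangles and open squares mark control replicates 1 and 4, which lie at opposite ends for Lman2 (175 and 1108 CPM), Sec13 and Xbp1, while the knockout libraries sit between them.

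Leaving out control replicates 1 and 4, or using another count test, added member calls upward and none downward. Control replicate 1 was most often the lowest library and control replicate 4 most often the highest, so leaving both out trims the control spread. Over all genes calls then rose both ways, to 4.26% higher and 4.5% lower, beside 2.54% and 3.19% with every library. Without control replicates 1 and 4, 4 of the 35 members were higher (Ctage5, Mcfd2, Bet1 and Cnih1). DESeq2 called 3 of the 35 (Ctage5, Mcfd2 and Bet1) beside 3.13% of all genes. With limma-voom and sample weights 4 of the 35 were called (with Cnih1) beside 4.85%. In each of these fits the members had a larger share than all genes. Mcfd2 had an adjusted p of 0.0287 with DESeq2 and 0.00371 with limma-voom, Bet1 0.0332 and 0.0117, and Cnih1 0.114 and 0.00991. Over the 16 alternatives Mcfd2 was called in 5, Bet1 in 6 and Cnih1 in 3, always with a positive fold change (0.65 to 1.04, 0.55 to 0.76 and 0.53 to 1.01). Without control replicate 4 the log2 fold change of Sec13 was 0.67 and that of Lman2 0.17, neither called. Without control replicate 1 those of Stx5a and Bet1l were 0.30 and 0.02, also without a call.

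The bases in front of the start sites are shown for the 4 members called in any of these fits, and for Sec24d. Regulators of the unfolded protein response and related factors are known to bind in front of genes. Binding at these members was not examined. Sec24d is added because, of the tested members with an entry, it alone holds TGACGTGG. The 250 bases upstream of the start come from RefSeq (GRCm38.p6), written 5′ to 3′ on the gene's strand. Capitals mark CCACG on either strand (CGTGG when reversed), the core shared by ER stress elements, or the longer TGACGTGG, the core of the unfolded protein response element, which contains it. Ctage5 is shown by 1 of its 3 listed starts, the one that holds a match.
Ctage5 (chr12:59131231-59131480, plus strand): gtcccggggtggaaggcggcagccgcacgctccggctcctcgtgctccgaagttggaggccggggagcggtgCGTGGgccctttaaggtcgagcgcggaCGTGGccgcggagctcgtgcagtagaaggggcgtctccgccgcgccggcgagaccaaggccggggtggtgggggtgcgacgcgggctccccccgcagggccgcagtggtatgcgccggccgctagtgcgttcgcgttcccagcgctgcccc
Mcfd2 (chr17:87265948-87266197, minus strand): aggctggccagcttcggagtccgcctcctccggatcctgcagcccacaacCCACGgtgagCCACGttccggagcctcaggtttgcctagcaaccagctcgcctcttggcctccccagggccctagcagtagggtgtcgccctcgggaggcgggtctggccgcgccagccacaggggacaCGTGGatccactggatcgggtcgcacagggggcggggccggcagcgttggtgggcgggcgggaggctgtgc
Cnih1 (chr14:46788358-46788607, minus strand): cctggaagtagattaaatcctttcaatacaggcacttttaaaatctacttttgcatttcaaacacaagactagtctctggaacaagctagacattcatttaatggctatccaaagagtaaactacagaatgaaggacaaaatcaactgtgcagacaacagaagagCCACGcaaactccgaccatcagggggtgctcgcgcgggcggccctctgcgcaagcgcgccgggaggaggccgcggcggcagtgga
Bet1 (chr6:4086931-4087180, minus strand): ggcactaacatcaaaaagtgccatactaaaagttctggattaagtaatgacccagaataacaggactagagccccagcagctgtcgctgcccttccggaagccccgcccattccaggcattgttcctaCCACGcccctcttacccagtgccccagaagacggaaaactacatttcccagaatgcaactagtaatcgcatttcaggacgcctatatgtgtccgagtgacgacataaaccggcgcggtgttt
Sec24d (chr3:123267246-123267495, plus strand): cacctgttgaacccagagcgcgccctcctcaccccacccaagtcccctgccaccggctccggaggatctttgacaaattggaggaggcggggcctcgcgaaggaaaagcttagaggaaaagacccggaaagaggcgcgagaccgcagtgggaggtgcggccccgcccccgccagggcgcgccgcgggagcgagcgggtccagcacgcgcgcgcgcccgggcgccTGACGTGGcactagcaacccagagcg

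Of the 36 genes, 32 had an entry. CCACG lay upstream of 20 of them, in 22 of their 39 listed windows, beside 28.3% of all 32851 upstream windows of that length and 42.8% of the 9697 windows of tested genes. TGACGTGG lay upstream of 2, Sec24d (26 to 19 bases before the start) and Sec16b, beside 0.563% of all windows and 0.742% of those of tested genes. Sec24d, a Sec24 paralog, had a fitted difference of 0.37 that passed no threshold, and Sec16b was nearly without counts. The full ER stress element (CCAAT and CCACG, 9 bases apart) and its second form (ATTGG and CCACG, 1 base apart) lay upstream of 0 members, beside 0.113% and 0.0304% of all windows. TGATGCAA, a core bound by Atf4 with its partners, lay upstream of 0 members, beside 0.791%. Both strands were searched, and these matches describe letters and not binding.

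Genes that work beside the machinery were read from a longer list. Of 57 further genes of ER to Golgi traffic (other TRAPP, Yip, SNARE, tether and receptor genes), 51 were tested. Of these, 2 were higher and 0 lower (beside 2.54% and 3.19% of all genes). Their median log2 fold change was 0.11, and 64.7% of their fitted values lay above 0. Use1, a SNARE of vesicles returning to the ER, gave 185, 201, 264 and 230 CPM in control replicates 1 to 4 and 331, 390, 329 and 338 CPM in knockout replicates 1 to 4. Vti1a, a Golgi SNARE, gave 20.9, 20.6, 14.8 and 14.6 CPM in controls and 27.5, 30.1, 32.3 and 34.7 CPM in the knockout. Neither overlapped between groups (log2 fold changes 0.65 ± 0.15 and 0.82 ± 0.20 SE, adjusted p = 0.0134 and 0.0263, edgeR). Use1 lost its call when replicate 2 of either group was left out (0.0613 for the control, 0.0755 for the knockout), and that of Vti1a without control replicate 3 (0.0896) or any of knockout replicates 2 to 4 (0.0791, 0.0886 and 0.088) and with a replicate block (0.0505). Of 7 transcription factors known to act on secretory genes, Atf6b alone was called in edgeR, as lower. Atf6b was also called in each of the 16 alternatives, which were not read for the other 6. It gave 420, 501, 469 and 481 CPM in controls and 302, 264, 278 and 307 CPM in the knockout (-0.70 ± 0.13 SE, adjusted p = 0.0038, edgeR). Creb3 (-0.45, adjusted p = 0.0903), Atf4 (0.72, 0.0787) and Xbp1 (-0.39, 0.643) did not pass in edgeR.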

How the data were processed

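Libraries were grouped by the titles and genotypes in the labels, 4 knockout and 4 control. The deposited files give each symbol a raw count in whole reads. Per the labels' protocols, libraries were made with the QuantSeq 3′ FWD kit. The submitters' processing notes name the mm10 build, HTSeq 0.6.1, TopHat2 2.1.1, SAMtools 1.3.1 and BWA 0.7.12. Their roles were not given in the sources used here, nor were the annotation and strand setting. It is therefore not known whether tags of genes that overlap on opposite strands were counted apart. Exons of Ergic1, Gosr2, Sec24c, Surf4 and Yif1a also overlap genes on the opposite strand, and those of Stx5a a microRNA gene on the same strand. No molecular identifiers are stated, so counts may include PCR copies. Replicates of a group differed by more than sampling noise (chi-square per degree of freedom 6.60 to 94.2).

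Genes were filtered with filterByExpr (minimum count 10, minimum total 15) and scaled with TMM factors, which left 9904. Differences were tested with the quasi-likelihood F-test of edgeR 4.0.16 in R 4.3.3 (robust, group as the only term, two-sided), adjusted by Benjamini-Hochberg over all genes tested, at a threshold of 0.05. Each standard error is the log2 fold change over the root of its F value. Paralog shares were tested by exact permutation of the libraries. The alternatives comprised limma-voom with sample weights (limma 3.58.1), DESeq2 1.42.0, other scalings and filters, a replicate block, and left-out libraries. The steps were checked on simulated counts with the same spread in both groups, so the wider spread of the controls here was not covered. Recovery was required for large changes only, beyond those of any member. The members, the other gene lists and the naming rule were chosen with earlier results of these data known. Values per library are given for members that were called, whose groups did not overlap, with an unadjusted p under 0.05, with the highest level of their role, or with a paralog share. All 36 symbols were found in GENCODE M21 (GRCm38), Ctage5 through an older symbol. Upstream sequences of Lman1, Yipf5, Trappc1 and Trappc4 were not used here.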

Additional observations from a re-analysis of the deposited data

Results flagged for a closer look

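Knockout replicate 4 stood apart from the other knockout libraries for 2 genes, by the gap between the highest library and its nearest neighbour relative to the range of the group. Lman2 gave 576 CPM there and 432 to 447 CPM in the other 3 knockout libraries (gap over range 0.896). Ykt6, a SNARE that cycles between membranes and the cytosol, gave 89.0 CPM there and 62.7 to 66.1 CPM in the other 3 (0.869). These are 2 of 70 groups of 4 libraries looked at, and chance gives about 1 in 20.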

How the results depend on the processing

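The number of members called higher was 1, beside 2.54% of all genes. It was 3 with DESeq2 (beside 3.13%), 4 with limma-voom (4.85%), 3 without a count filter (1.88%) and 4 without control replicates 1 and 4 (4.26%). It was 0 to 4 when each library was left out in turn. Leaving out control replicate 3 or replicate 1 or 2 of the knockout gave 0 (beside 1.77%, 1.63% and 1.35%). Leaving out replicate 4 of the knockout gave 2 (1.96%), and replicate 4 of the control 4 (4.09%). No member was called lower in edgeR or in any of the 16 alternatives, while Ergic1 had an unadjusted p under 0.05. The median log2 fold change of the members, 0.08, ran from -0.047 (without control replicate 1) to 0.18 (without control replicate 4). Genes called over the whole table numbered 568, and 1070 with limma-voom, 901 without control replicates 1 and 4, and 270 (without knockout replicate 2) to 892 (without control replicate 4) with single libraries left out; leaving out replicates 2 and 3 of the control in turn gave 368 and 366, and replicate 1 or 3 of the knockout 344.

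The labels do not say whether replicate numbers pair the samples, and correlations between libraries cannot exclude it. Deviations of same-numbered libraries from their group means correlated at 0.0438, -0.00342, 0.0422 and 0.0662. With a replicate block, 1 member was higher (Ctage5, 0.73, adjusted p = 0.0353) and 509 genes were called. Not every library correlated best with its own number. The number of libraries, 4 per group, limits the precision of every member, and the widest intervals were those of Lman2 and Sec13.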
